A study of Arabidopsis thaliana with 8 samples.

Results

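The signals of 2 phosphoglycerate mutase-like genes of Arabidopsis thaliana, PGM (AT1G78050, probe set 262180_at) and AT1G22170 (probe set 255924_at), were followed over roots and shoots with and without nitrate. They were chosen by name from earlier results on these arrays, in which their response to nitrate was known, so their nitrate response is given below as a description without a test. Both genes were found in the deposited table, each as 1 probe set that matches 1 gene, among 22746 probe sets in all, and both passed the filter on low signal, which left 13647 probe sets. The gene records name PGM a phosphoglycerate/bisphosphoglycerate mutase. They give AT1G22170 no symbol or description, so calling it mutase-like does not rest on these records.

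The plants were wild-type Col-0 seedlings aged 10 days, from 1 accession with no transgene named in the labels, raised under constant light in beakers of liquid medium that held many seedlings each. The 4 groups were roots given 250 µM potassium nitrate for 20 min, roots given 250 µM potassium chloride (KCl) for 20 min, shoots given the same nitrate dose and shoots given the same KCl dose. Each group held 2 samples, hybridised to 1 one-colour Affymetrix ATH1 array each, numbered 1 and 2 in the sample titles, and so few arrays limit the precision. It is not stated whether samples 1 and 2 of a group came from different cultures. The errors and p-values therefore cover the spread between such samples, technical or not, and nothing more. Each SE and p-value of the fit uses a spread pooled over all 4 groups and moderated across probe sets. An SE in roots thus also draws on the shoot arrays.

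Phosphoglycerate mutases interconvert 3-phosphoglycerate and 2-phosphoglycerate in the lower part of glycolysis, between phosphoglycerate kinase and enolase. They come in a cofactor-dependent form, which uses a bisphosphoglycerate and belongs to the histidine phosphatase superfamily, and an unrelated cofactor-independent form, which in Arabidopsis is encoded by iPGAM1 and iPGAM2. Lower glycolysis leads to phosphoenolpyruvate and pyruvate, from which plants build the organic acids that accept newly assimilated nitrogen. The symbol PGM is also in use for phosphoglucomutase, a different enzyme of starch and sucrose metabolism that is not meant here.

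The arrays matched their organ labels. The Rubisco activase gene RCA, a marker of green tissue, had signals of 108 to 171 on the 4 root arrays and 2492 to 4194 on the 4 shoot arrays, and the root hair expansins EXPA7 and EXPA18 had 121 to 176 and 237 to 284 in roots against 3.59 to 25.4 and 2.07 to 35.1 in shoots. Median signals lay between 42.3 and 49.9. The shoot arrays numbered 1 and 2 stood further apart than the root arrays: the log2 difference between the 2 arrays of a group had an SD over the tested probe sets of 0.29 (nitrate) and 0.30 (KCl) in roots and of 0.47 (nitrate) and 0.50 (KCl) in shoots.

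PGM was near the low end of its range in KCl and far above it after nitrate in both organs. In roots its signal was 1820 and 1219 on the nitrate arrays, against 60.5 and 65.5 on the KCl arrays. The lower nitrate array stood 18.6-fold above the higher KCl array, and the means differed 24.1-fold (1519 ± 425 and 63.0 ± 3.57; SD, n = 2 each). In shoots the signal was 441 and 244 on the nitrate arrays, against 24.8 and 3.47 on the KCl arrays. The groups did not overlap there either, and the lower nitrate array was 9.84-fold above the higher KCl array, with 343 ± 139 against 14.1 ± 15.1 (SD, n = 2 each).

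The fold in shoots divides by a low signal and differed widely between arrays. It was 17.8 between the shoot arrays numbered 1 and 70.5 between those numbered 2. In roots the same ratios were 30.1 and 18.6. In proportion to their signal, though not in signal units, the 2 shoot KCl arrays stood further apart than the 2 shoot nitrate arrays. Both KCl signals in shoots lay below 33.3, the value of the filter on mean signal, and no detection calls were used, so it was not determined whether they exceed background. On the log2(signal + 16) scale, which damps such low values and understates the change of low transcripts, PGM was higher with nitrate by 4.25 ± 0.39 in roots and 3.61 ± 0.39 in shoots (SE, n = 2 arrays per group). With only the arrays of the groups compared, the SE was 0.20 in roots and 0.43 in shoots.

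AT1G22170 had a clear step in roots and almost none in shoots. In roots its signal was 297 and 342 with nitrate, against 78.5 and 85.8 with KCl. The ratio between arrays of the same number was 3.79 and 3.98, so both ratios were nearly the same, and the means were 320 ± 31.5 and 82.1 ± 5.16 (SD, n = 2 each). In shoots the signal was 56.9 and 54.3 with nitrate, against 34.3 and 51.4 with KCl. The groups did not overlap, but the lower nitrate array was only 1.06-fold above the higher KCl array, and the ratio between arrays of the same number was 1.66 and 1.06. The log2 difference was 1.77 ± 0.19 in roots and 0.30 ± 0.19 in shoots (SE, n = 2 arrays per group), the second close to its error. With only the arrays of the groups compared, the SE was 0.14 in roots and 0.26 in shoots. Without the first shoot KCl array the shoot difference was 0.09, and without the second it was 0.51.

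**Figure D1:**
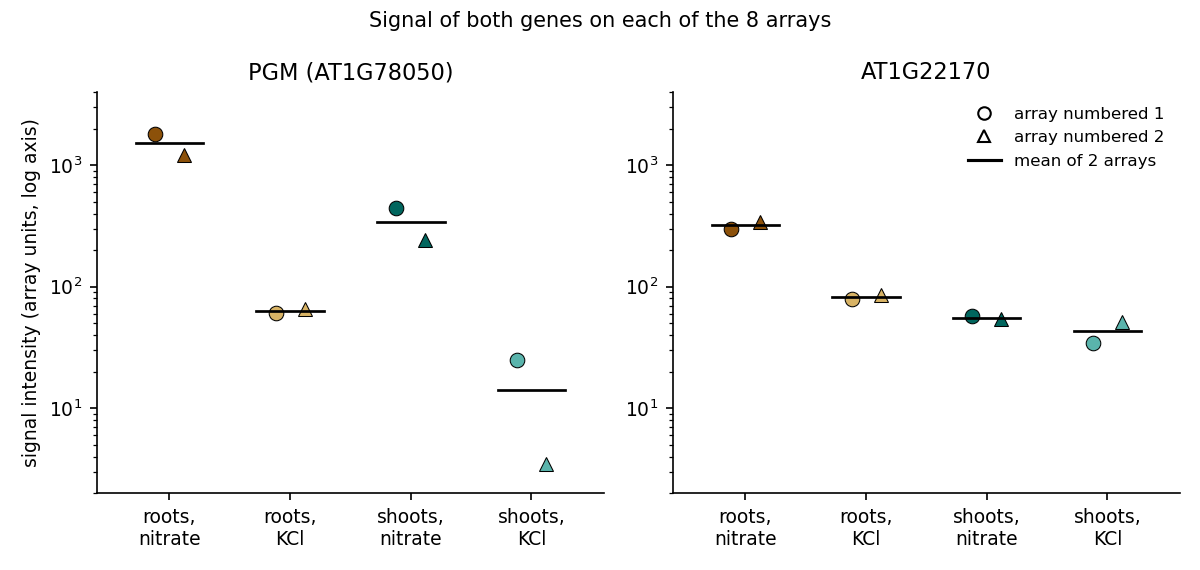
Signal intensity (array units, log axis) of PGM and AT1G22170 on each of the 8 arrays, by organ and treatment. Circles and triangles are the arrays numbered 1 and 2 and bars are the means of 2 arrays. PGM is at 1219 or more in roots and at 244 or more in shoots with nitrate and at 65.5 or less with KCl, whereas AT1G22170 is at 297 and 342 in roots with nitrate and at 85.8 or less in the 3 other groups. Signals are not to be compared between the genes, which have different probes.

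That both genes had nitrate arrays above all KCl arrays in both organs is a weak criterion with 2 arrays per group. Among the tested probe sets 13.2% met it in roots, 8.91% in shoots and 2.84% in both organs, and nothing is read from it for these genes, which were chosen by this response.

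The order of the groups differed between the genes. PGM was highest in roots with nitrate (mean 1519), followed by shoots with nitrate (343), roots with KCl (63.0) and shoots with KCl (14.1), so that treatment came before organ. AT1G22170 was highest in roots with nitrate (320), followed by roots with KCl (82.1), shoots with nitrate (55.6) and shoots with KCl (42.9), so that organ came before treatment. For both genes each array of a group lay above each array of the next group in this order. The order was set from the means themselves. How many tested probe sets separate fully in their own order was not counted, so nothing is read from this. For AT1G22170 the closest neighbours, shoots with nitrate and shoots with KCl, were separated by less than the gap between the 2 KCl arrays.

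The nitrate change in roots minus that in shoots was 0.64 ± 0.55 for PGM and 1.47 ± 0.27 for AT1G22170 on the log2(signal + 16) scale (SE). For PGM the difference was near its error and its sign depended on the pseudocount, with -0.40 at a pseudocount of 1 and 1.26 at 64. For AT1G22170 it was positive at each of these pseudocounts. As a difference of mean signals, PGM gained 1456 in roots and 329 in shoots, and AT1G22170 gained 237 in roots and 12.7 in shoots. No test is given, because the response in each organ entered the choice of the genes.

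After nitrate, root signals were above shoot signals on every array. The share of all tested probe sets with this separation after nitrate was not counted. In KCl it was 37.0%, so nothing is read from the separation for these genes. The means differed 4.43-fold for PGM (1519 in roots and 343 in shoots) and 5.75-fold for AT1G22170 (320 in roots and 55.6 in shoots). Whether cells that express a gene are fewer in shoots or hold less of its RNA cannot be told apart in such bulk samples.

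Roots and shoots also differed in KCl, in plants that were given no nitrate in these 20 min. The genes were chosen over all 4 groups, so this difference too is a description without a test. PGM had 60.5 and 65.5 in roots and 24.8 and 3.47 in shoots, a log2 difference of 1.49 ± 0.39 (SE) that was 0.95 without the second shoot KCl array and 0.71 at a pseudocount of 64. Its shoot side is the one below the filter value. AT1G22170 had 78.5 and 85.8 in roots and 34.3 and 51.4 in shoots, a log2 difference of 0.75 ± 0.19 (SE). Root arrays lay above shoot arrays without overlap for both genes, as they did for 37.0% of all tested probe sets.

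The other enzymes of glycolysis and of phosphoenolpyruvate use were taken as a list of 58 genes over 12 enzymatic steps. The probe table used here names a probe set for 19 of them. Of the 17 probe sets 13 were tested, 12 of these matching 1 gene, and 7 steps were covered; the 4 others, all of pyruvate kinases, had mean signals of 14.8 or less. The gene records give a mutase name to 3 genes, PGM, iPGAM1 and iPGAM2, and the table lists no probe set for the last 2, so the cofactor-independent mutases were not analysed here by name. This search read only symbols and synonyms, and it did not find AT1G22170 either. Other mutase-like genes may therefore be among the tested probe sets, and whether they changed with nitrate was not examined.

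Around the mutase step, the glycolytic transcripts of 1 gene each showed small differences after 20 min of nitrate, none past the test. Of the 12 tested probe sets of 1 gene, 0 were called in roots and 0 in shoots by limma. Among all tested probe sets 1.03% were called higher and 0.103% lower in roots and 0.0953% higher in shoots. An unadjusted p (limma) under 0.05 was found for 0 of the 12 in either organ. Among all 13647 tested probe sets 769 had such a p in roots and 323 in shoots. With 12 probe sets, counts of 0 lie near these shares, so nothing is read from them. The median log2 change of these 12 was 0.12 in roots and 0.01 in shoots, beside -0.03 and -0.01 over all tested probe sets. On either side of the mutase step, phosphoglycerate kinase (AT1G56190) had 363 and 367 with nitrate and 320 and 319 with KCl in roots, a log2 change of 0.18 ± 0.14, and the enolase ENOC had 222 and 244 against 214 and 217, a change of 0.10 ± 0.16 (SE). These are the only probe sets of the list at the kinase and enolase steps. The cell compartments of the enzymes were not considered, and whether they share a pathway with PGM or AT1G22170 was not tested.

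Among these 12 probe sets of 1 gene, the smallest p in roots belonged to 2 pyruvate kinase genes, which act at the last step of glycolysis. AT5G56350 had a log2 change of 0.35 ± 0.16 and AT5G63680 of 0.27 ± 0.14 (SE; limma, adjusted p = 0.928 and 1.0). In shoots it belonged to the pyruvate kinase gene AT5G08570, with 0.29 ± 0.22, and to ENOC, with -0.21 ± 0.16 (adjusted p = 1.0 for both).

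A single glycolytic probe set was called with nitrate, and it does not distinguish the pyruvate kinase genes AT3G52990 and AT2G36580. It lies outside the rule for named genes and was chosen after its values were seen. It had 1250 and 1039 with nitrate and 407 and 520 with KCl in roots, a log2 change of 1.28 ± 0.22 (SE; limma, adjusted p = 0.0331). In shoots it had 488 and 471 with nitrate and 256 and 377 with KCl, a change of 0.60 ± 0.22 that did not pass (adjusted p = 1.0, unadjusted p = 0.0245). The root call was lost under 6 of 17 alternatives: the adjusted p was 0.377 without root nitrate array 1, 0.143 without root nitrate array 2, 0.389 without root KCl array 1, 0.14 without root KCl array 2, 0.0581 after quantile normalization and 0.0683 without the filter.

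**Figure D2:**
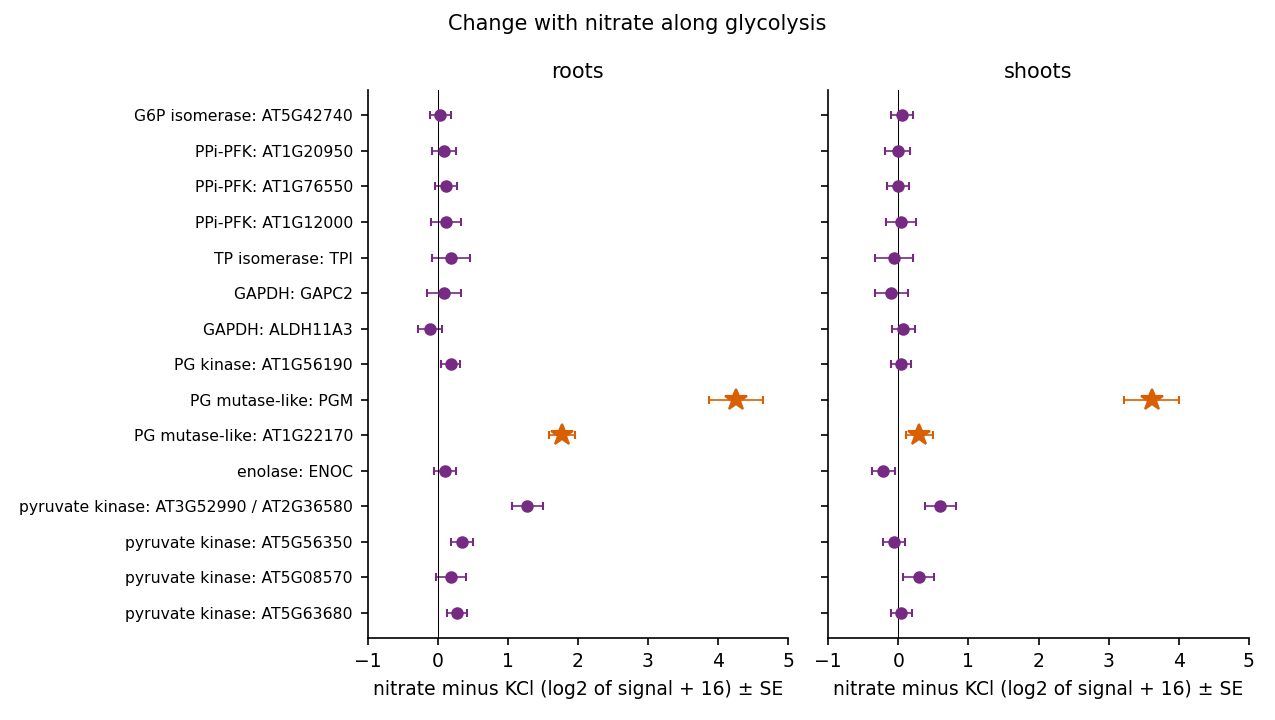
Change with nitrate (nitrate minus KCl, log2 of signal + 16, ± SE) of the tested glycolysis probe sets, in pathway order, and of PGM and AT1G22170, for roots and shoots. PGM and AT1G22170 are drawn at the mutase step by their label alone, and whether they act there was not tested. G6P is glucose 6-phosphate, PPi-PFK pyrophosphate-dependent phosphofructokinase, TP triose phosphate, GAPDH glyceraldehyde-3-phosphate dehydrogenase and PG phosphoglycerate. The neighbouring kinase (0.18 in roots) and enolase (0.10) lie close to 0, PGM lies at 4.25 in roots and 3.61 in shoots, and the probe set shared by 2 pyruvate kinase genes lies at 1.28 and 0.60.

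Between organs in KCl the glycolysis list was more varied. Of its 13 tested probe sets 5 were called higher in roots and 2 lower by limma, while over all tested probe sets 18.6% were called higher and 19.2% lower. The median log2 difference of the list was 0.43, beside 0.08 over all tested probe sets. The 4 largest differences among the higher ones were those of AT1G12000 (1.44 ± 0.22) and AT1G76550 (1.03 ± 0.16), subunits of the pyrophosphate-dependent phosphofructokinase, the pyruvate kinase gene AT5G56350 (0.91 ± 0.16) and a further phosphofructokinase subunit, AT1G20950 (0.62 ± 0.17). Their adjusted p (limma) was 0.00095, 0.000875, 0.00185 and 0.021 in this order. The lower ones were ALDH11A3, which encodes a non-phosphorylating glyceraldehyde-3-phosphate dehydrogenase, by -4.10 ± 0.17, and phosphoglycerate kinase AT1G56190, by -0.50 ± 0.14 (adjusted p = 2.8e-06 and 0.0225). The calls of AT1G20950 and AT1G56190 were lost under 4 and 7 of 17 alternatives, where the adjusted p (limma) reached 0.137 and 0.107. With any root array or either shoot KCl array left out, the list had fewer calls, as had all tested probe sets together.

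Genes next to the pair in the TAIR10.1 gene records were not called with nitrate. They were picked by position, and not by how they changed. Among all tested probe sets only 1.03% were called higher and 0.103% lower in roots and 0.0953% higher in shoots. Nothing is therefore read from the absence of calls among so few neighbours. The record of PGM overlaps that of AT1G78060, whose probe set had 244 and 310 with nitrate and 203 and 364 with KCl in roots, a log2 change of 0.01 ± 0.27 (SE). On the other side AT1G78040 had a change of 0.05 ± 0.20. The record of AT1G22170 overlaps that of AT1G22180, which had 116 and 113 with nitrate and 85.9 and 95.1 with KCl in roots, a change of 0.29 ± 0.21, and AT1G22160 had -0.07 ± 0.48. In shoots the changes of the 4 neighbours lay between -0.22 and 0.06. None of these neighbours passed in either organ (limma, adjusted p = 1.0 for each).

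The transcripts whose pattern was most like that of each gene were ranked by the Pearson correlation of log2(signal + 16) over the 8 arrays, among 7252 other tested probe sets of 1 gene. The 8 arrays share organ and treatment groups, so the same order of group means alone can give a high correlation. These correlations are descriptions and carry no test.

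Closest to PGM were AT4G36010 (r = 0.987) and AT5G41670 (0.985), the second of which encodes a 6-phosphogluconate dehydrogenase of the oxidative pentose phosphate pathway. MDH, the plastidic NAD-dependent malate dehydrogenase (0.970), followed with AT3G07350 (0.968) and AT1G13000 (0.967). AT4G36010 had 880 and 702 with nitrate and 90.4 and 88.4 with KCl in roots, and 340 and 250 against 44.5 and 50.6 in shoots. AT5G41670 had 2090 and 1715 with nitrate and 246 and 229 with KCl in roots, and 940 and 716 against 126 and 141 in shoots. Their log2 changes were 2.93 and 2.91 in roots and 2.28 and 2.49 in shoots, so both had, like PGM, a large nitrate step in each organ. MDH had 1546 and 1207 with nitrate and 447 and 488 with KCl in roots. In shoots it had 792 and 726 with nitrate and 340 and 402 with KCl, so its groups kept apart in both organs at a smaller fold than PGM. AT1G13000 shows that the measure ranks shape and not size, since its signals spanned only 74.5 to 99.4 over all 8 arrays. The most opposite patterns were those of AT3G19680 (r = -0.973), with 124 and 133 with nitrate and 235 and 204 with KCl in roots and 141 and 195 against 280 and 333 in shoots, and of AT2G32450 (-0.956).

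Closest to AT1G22170 were AT2G46620 (r = 0.991), AT4G18340 (0.988), AT3G52360 (0.988), PSY1R (0.978), which encodes the receptor of the peptide PSY1, and BAT1 (0.977), a brassinosteroid-related acyltransferase. AT2G46620 had 689 and 601 with nitrate and 231 and 262 with KCl in roots, and 192 and 204 against 156 and 184 in shoots. AT3G52360 had 701 and 753 with nitrate and 168 and 201 with KCl in roots, and 102 and 88.8 against 71.6 and 70.5 in shoots. In both the root arrays with nitrate stood well apart and the shoot groups lay close together. BAT1 had 1270 and 1069 with nitrate and 179 and 219 with KCl in roots. In shoots it had 119 and 98.0 with nitrate and 52.9 and 45.1 with KCl. AT4G18340 had 18.5 and 36.1 with nitrate and 9.63 and 30.8 with KCl in shoots, where the groups overlapped, while its log2 change in roots was 2.32. The most opposite were ARL, named ARGOS-like (r = -0.975), with 125 and 97.1 with nitrate and 293 and 222 with KCl in roots, and AT5G18490 (-0.973). The 5 named for PGM and the 5 named for AT1G22170 had no gene in common, and the correlation between PGM and AT1G22170 was 0.791.

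**Figure D3:**
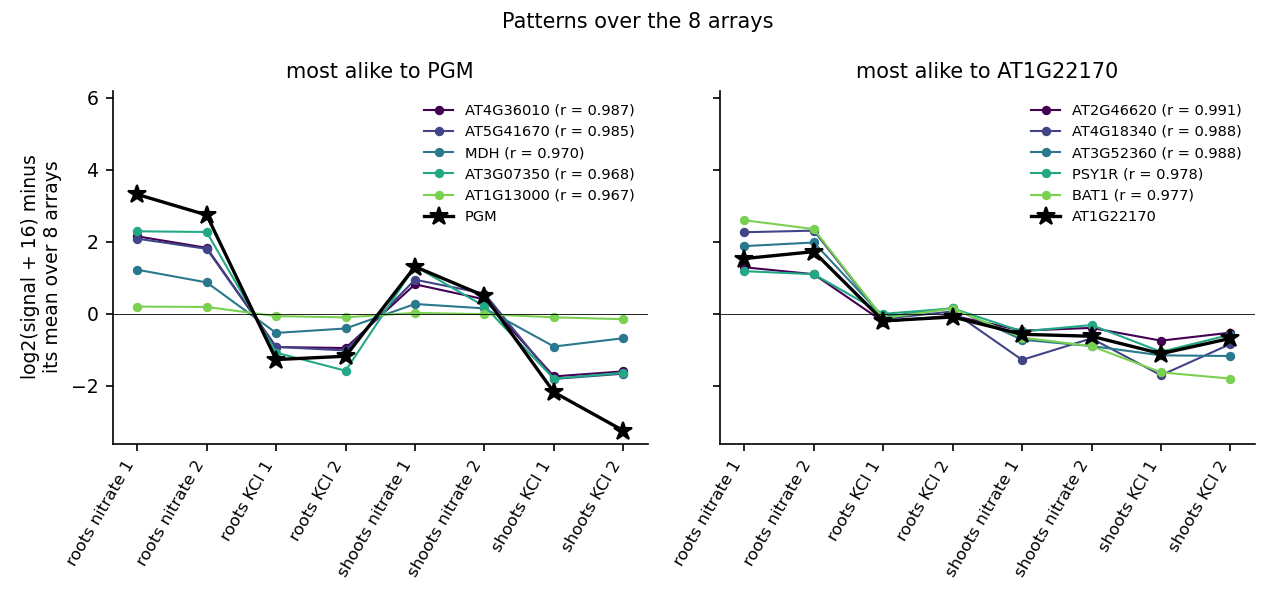
log2(signal + 16) minus its mean over the 8 arrays for PGM, AT1G22170 (stars) and the 5 transcripts most like each, with the Pearson r in the legend. PGM has peaks with nitrate in both organs and AT1G22170 has its peak in roots with nitrate, and the line of AT1G13000 (signals of 74.5 to 99.4) is nearly flat beside that of PGM.

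**Figure D4:**
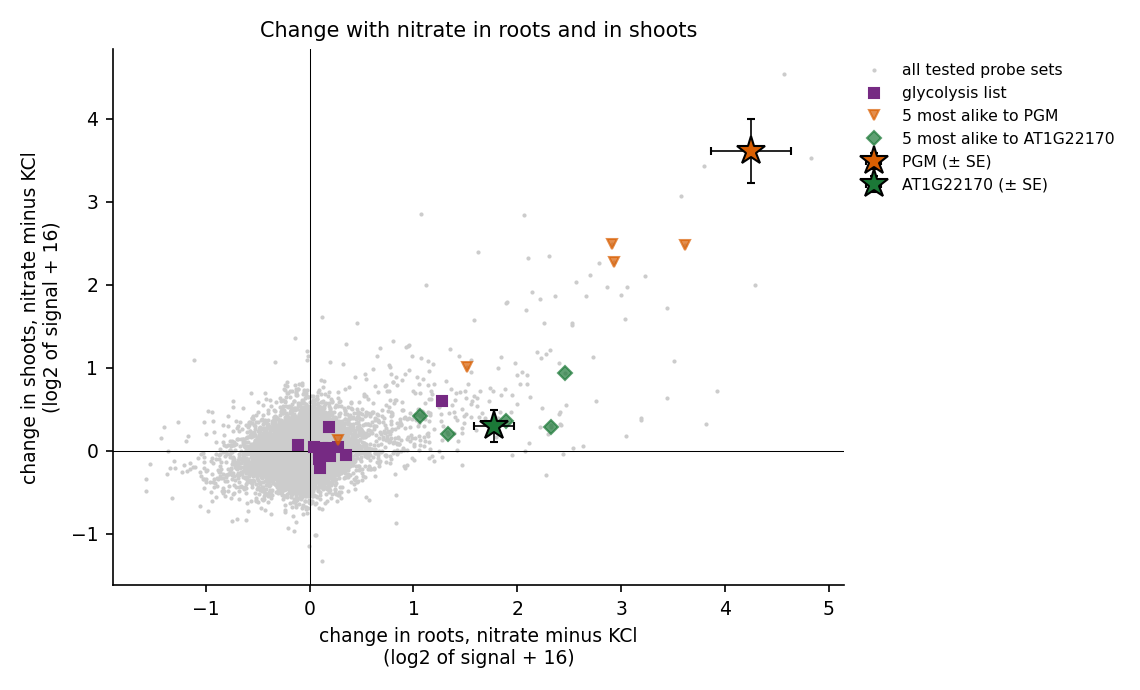
Change with nitrate in roots (horizontal) and in shoots (vertical), both as log2 of signal + 16, for all 13647 tested probe sets (grey), the glycolysis list and the transcripts most like each gene, with PGM and AT1G22170 as stars with SE bars. PGM (4.25 and 3.61) lies far from 0 on both axes, AT1G22170 (1.77 and 0.30) lies close to the horizontal axis, and most of the glycolysis list lies near the origin.

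The 5 named for each gene changed with the arrays used. Of the 5 most like PGM, 4 ranked within the first 5 by Spearman correlation with ties counted, but 1 each over the 4 root and the 4 shoot arrays alone. Of the 5 most like AT1G22170, 0 were in the first 5 in each of these 3 rankings. A Pearson r over 0.95 was found for 23 probe sets with AT1G22170 and 9 with PGM, so that the ranks lay close together. The Spearman count of 4 for PGM rests on ties. There 4 probe sets shared the highest value, MDH (0.976) among them. AT4G36010, AT5G41670 and AT3G07350 were tied behind these at 0.952, so more than 5 probe sets counted as the first 5.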

How the data were processed

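RNA from 8 samples was hybridised to ATH1 arrays, 1 per sample. In the deposited table each array has 1 linear signal intensity for every probe set, which the authors made with MAS5 and GCOS per the submitters' processing notes. No versions, scaling target or filters were given in the sources used here. The mean without the lowest and highest 2% was 100.01 on every array, so arrays were used as scaled. Titles of the samples gave the groups and numbers.

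After removal of 64 controls, probe sets with a mean signal above the 40th percentile (33.3) were kept. Log2(signal + 16) was modelled with limma 3.58.1 under R 4.3.3 (eBayes with a trend, 4 groups on 8 arrays, 4 residual and 4.34 prior degrees of freedom), two-sided, with Benjamini-Hochberg adjustment over 13647 probe sets and a threshold of 0.05. Called means past this threshold. No p is given for PGM and AT1G22170, although a test of their difference between organs in KCl had been planned, since their choice used all 4 groups. On simulated arrays for roots (13647 probe sets, 200 changed) the fit found 61% of the 2-fold and 98% of the 4-fold changes, with 5 false among 164 calls. The simulated noise was independent between arrays and took its size from the same fit. Real arrays of the same number deviate together, so these rates do not measure the errors of the real calls. Tables used Python 3.11.15 and pandas 2.3.3, and figures matplotlib 3.10.9.

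Names came from the platform's probe table and TAIR10.1 gene records. Probe sets that the table does not list are unnamed here, and no coordinates or sequences were used. The genes, lists and tests were chosen with earlier results of these data known. The rule for named genes took both mutase-like genes, glycolysis genes called with nitrate or else the 2 with the smallest p, the 4 largest called changes per direction between organs, and the 5 most alike and 2 most opposite transcripts. Alternatives covered pseudocounts of 1 and 64, quantile normalization, no filter or the 60th percentile, eBayes without a trend, replicate blocks, only the groups compared, each array left out, and other measures of likeness.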

Additional observations from a re-analysis of the deposited data

How the results depend on the processing

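Depth is not recorded on arrays; low signals limit the fold of PGM in shoots most. On the log2 scale the nitrate change of PGM was 3.61 in roots at a pseudocount of 64, and in shoots 4.94 at a pseudocount of 1 and 2.35 at 64; that of AT1G22170 in roots was 1.95 and 1.39. The change in roots minus that in shoots was -0.40 at a pseudocount of 1 and 1.26 at 64 for PGM and 1.22 at 64 for AT1G22170. Without any 1 array it ran from 0.11 to 1.17 for PGM, with both ends set by leaving out a shoot KCl array, and from 1.26 to 1.69 for AT1G22170. Roots minus shoots in KCl was 0.71 for PGM at a pseudocount of 64, and without any 1 array ran from 0.95 to 2.02 for PGM and from 0.54 to 0.96 for AT1G22170.

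When 1 replicate block was shared by roots and shoots, 264 probe sets were called for nitrate in roots and 36 in shoots, against 155 and 13 without it, and with a block within each organ 517 and 82. What the replicate number marks is not stated. The differences between arrays 2 and 1 correlated across groups with r from 0.207 to 0.665. The calls that the report gives for glycolysis probe sets were not lost under either block. Between organs in KCl 10 of the list were called under each block, against 7 without a block. Over all 13647 tested probe sets the calls there were 6440 with the shared block and 7620 with a block within each organ, against 5153. With only the arrays of the groups compared 279 were called in roots and 1 in shoots. Without any 1 array the counts ran from 32 to 180 in roots and from 7 to 25 in shoots. Of the glycolysis list 0 were called in roots after quantile normalization and without the filter. Between organs in KCl 4 of the list were called with only the KCl arrays, where all tested probe sets had 4639 calls. In both comparisons leaving out 1 array could lower the count of the list. Causes were not tested.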
